A study of Mus musculus with 12 samples.

Results

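Wounds of streptozotocin-diabetic mice treated with MCS-01 and labelled post-MCS-01 were compared with wounds treated with DSCG. All libraries with either treatment label were taken, 3 post-MCS-01 and 3 DSCG, which are 6 of the 12 libraries in the series. The other 6 libraries, 3 labelled blank and 3 labelled pre-MCS-01, entered the same fit and are given as background levels. Every animal was a C57BL/6 mouse, every sample a skin wound from the back, and each library carries its own mouse number. MCS-01 is a mast cell stabilizer known here by its code name only, and DSCG commonly stands for disodium cromoglycate, a mast cell stabilizer in long use. The labels give no dose, time after wounding or age, and do not say what pre and post refer to. The comparison therefore sets 1 compound and schedule beside another, with dose and time unstated for both, and it answers how the wound transcriptomes under the 2 stabilizers differed.

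Mast cells store histamine and proteases such as chymase, tryptase and carboxypeptidase A3 in granules, and stabilizers are agents that hinder the release of these granules. Healing skin wounds hold a migrating epidermis, inflammatory cells and new stroma, together with the hair follicles of the wound margin. A hair follicle in its growth phase, anagen, builds a shaft of hard keratins cross-linked by keratin-associated proteins, inside an inner root sheath that is hardened by trichohyalin and by peptidylarginine deiminases. A follicle at rest makes little of these proteins.

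RNA was measured as counts of reads per gene. Levels are in CPM, which sets each count against the size of its library, adjusted by a TMM factor. The 6 libraries held 3.77e+07 to 4.83e+07 gene counts. Blank replicate 3 held 3.84e+06, so its low levels are the least precise. The tissue label was checked against skin markers: Krt5, a keratin of basal keratinocytes, was at 5091 to 7282 CPM in post-MCS-01 and at 5421 to 8526 CPM in DSCG, and Col1a1, a fibrillar collagen chain, was at 8263 to 20842 and at 7634 to 23300 CPM. For each library, the log2 level of a gene minus the mean of that gene over all libraries was set against exon length. Spearman correlations across genes were -0.33 in DSCG replicate 2, and 0.0106 and 0.253 in the other DSCG libraries. In post-MCS-01 replicates 1 to 3 they were 0.0841, 0.236 and -0.0559. These values are relative, comparing libraries with each other.

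Between the treatments, 172 of 16267 genes tested passed the threshold (1.06%), an adjusted p under 0.05 in edgeR's quasi-likelihood test with Benjamini-Hochberg adjustment. Of these, 23 were higher in post-MCS-01 (0.141%) and 149 lower (0.916%). Of the lower genes, 61 carried a keratin or keratin-associated protein symbol, 26 were predicted genes and 62 were others. Their median log2 fold change was -8.91, against 2.87 among the higher genes and -0.006 over all genes tested. In all 149 lower genes, the post-MCS-01 libraries lay below every blank library, and DSCG replicate 1 was the lowest DSCG library. In 21 of the 23 higher genes the post-MCS-01 libraries lay above every blank library, and in 9 of the 23 above every pre-MCS-01 library. Among the 3 post-MCS-01 libraries, replicate 2 was the highest in 18 of the 23 and replicate 3 the lowest in 18. The 3 and 3 libraries did not overlap in 2508 genes tested (15.4%), with 1161 higher in post-MCS-01 (7.14%) and 1347 lower (8.28%). An unadjusted p under 0.05 was reached by 1846 genes (11.3%). Adjusted p-values of the 172 calls lay close to the threshold, with 0.0288 the lowest.

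The calls changed with the libraries that entered the fit and with the tool. With edgeR, no gene passed without DSCG replicate 2, without DSCG replicate 3, without blank replicate 3, or when any 1 of the post-MCS-01 replicates was dropped, while 1239, 1556, 1942 and 1384 to 1554 genes had an unadjusted p under 0.05 in these fits. Without DSCG replicate 1, 606 genes passed, 152 higher and 454 lower, and 90 genes passed when pre-MCS-01 replicate 3 was dropped and 35 when blank replicate 2 was. The 6 libraries compared, fitted alone, gave 0 genes, with 1453 at an unadjusted p under 0.05. The fit without DSCG replicate 2, pre-MCS-01 replicate 2 and blank replicate 3, the libraries with the most negative exon-length correlations, also gave 0, with 1528 at an unadjusted p under 0.05. DESeq2 called 620 genes in the comparison, and limma-voom 2. All of the 172 genes that a fit tested kept their direction in it.

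Blank wounds place the 2 treatments. Against blank, edgeR called 0 genes (0%) in post-MCS-01 and 0 (0%) in DSCG, with 1521 and 167 genes at an unadjusted p under 0.05. DESeq2 called 406 genes between post-MCS-01 and blank, 132 higher and 274 lower, and 0 between DSCG and blank. The 3 comparisons share libraries, so the values against blank are set beside the others as levels and not as separate support.

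The type I hair keratins, acidic partners in the filaments of the hair shaft, were nearly absent from post-MCS-01 wounds. All 9 tested members of this list fell and passed the threshold (0.916% of all genes tested passed as lower), with a median log2 fold change of -9.39. Their summed level was 4.84, 2.45 and 7.18 CPM in post-MCS-01 replicates 1 to 3 and 108, 3048 and 1987 CPM in DSCG replicates 1 to 3, with 1209, 413 and 551 CPM in blank and 755, 3501 and 940 CPM in pre-MCS-01. The post-MCS-01 libraries thus lay below all 9 others, and DSCG replicate 1 lay between them and the blank libraries. In bulk tissue, fewer cells of a type and less RNA per cell cannot be told apart.

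Krt31, a keratin of the hair cortex (chromosome 11, 100046646 to 100050551, GRCm38, protein-coding), was at 0.504, 0.0240 and 0.161 CPM in post-MCS-01 and at 16.8, 499 and 391 CPM in DSCG. The groups did not overlap, and the blank libraries, at 219, 75.1 and 90.1 CPM, lay within the DSCG range. Its log2 fold change was -10.36 ± 1.48 (SE, n = 3 libraries each, edgeR adjusted p = 0.0288). Krt33a, a close relative in the same cluster, was at 0.428, 0.0960 and 0.0689 CPM in post-MCS-01 and at 15.9, 560 and 447 CPM in DSCG. It fell by 10.75 on the log2 scale (SE 1.53, edgeR adjusted p = 0.0288). Krt33b fell by 10.55 (SE 1.62), from 11.7, 503 and 259 CPM in DSCG to 0.353, 0 and 0.161 CPM. Krt33a and Krt33b are near-identical copies and only uniquely mapped reads were counted, so how their reads divide between them is uncertain. With post-MCS-01 replicate 1 left out, Krt31, Krt33a and Krt33b had log2 fold changes of -11.58, -11.93 and -11.53, and Krt33b had -9.92 without post-MCS-01 replicate 2 and -9.62 without DSCG replicate 2.

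**Figure D1:**
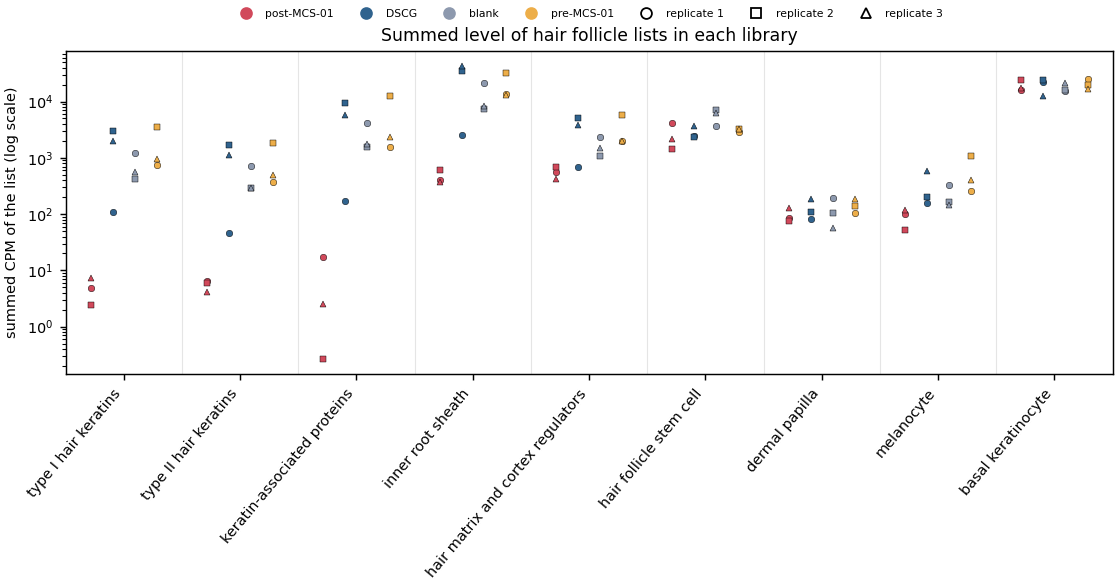
Each point is 1 library, the horizontal axis names the hair follicle list and the vertical axis gives the summed CPM of its members on a log scale, by treatment group and replicate. The type I hair keratins sit at 2.45 to 7.18 CPM in post-MCS-01 and at 108 to 3048 CPM in DSCG, with DSCG replicate 1 the lowest DSCG point in the 5 lists of shaft, sheath and matrix genes.

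The basic type II hair keratins pair with the type I chains. All 6 tested members had a negative log2 fold change, and 5 passed the threshold (0.916% of all genes tested passed as lower), with a list median of -8.87. Krt86 was at 0.554, 0.144 and 0.252 CPM in post-MCS-01 and at 14.7, 650 and 454 CPM in DSCG, a log2 fold change of -10.20 ± 1.52 (SE, edgeR adjusted p = 0.0300). Krt82, a keratin of the hair cuticle, was at 0.0756, 0.120 and 0.0459 CPM against 2.28, 54.3 and 37.8 CPM, a fall of 8.56 on the log2 scale (SE 1.26). The groups did not overlap for either gene. Krt81 and Krt83 had log2 fold changes of -11.19 (SE 1.74) and -8.61 (SE 1.33), both past the threshold, and Krt81, Krt83 and Krt86 are near-identical copies whose split of reads is uncertain. Krt84, a keratin described mainly in the tongue and nail, had a log2 fold change of -2.49 and did not pass (adjusted p = 0.162). Without post-MCS-01 replicate 1 the values of Krt81, Krt83 and Krt86 were -14.13, -10.10 and -10.81. Without DSCG replicate 2 those of Krt81, Krt82 and Krt86 were -10.39, -7.91 and -9.53, and that of Krt81 was -10.56 without post-MCS-01 replicate 2.

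Keratin-associated proteins, which fill the space between keratin filaments in the shaft, were lower in post-MCS-01 in every member tested. Of 52 listed, 51 were tested and 39 passed the threshold (0.916% of all genes tested passed as lower). In 50 of the 51 the groups did not overlap (8.28% of all genes tested were lower without overlap). The list median was -9.45, or -9.41 with the 7 members at 0 counts in post-MCS-01 set at their bound. Their summed level was 17.3, 0.264 and 2.52 CPM in post-MCS-01 and 170, 9403 and 5771 CPM in DSCG, with blank at 1561 to 4139 CPM and pre-MCS-01 at 1538 to 12743 CPM. Krtap11-1 was at 0.176, 0.0720 and 0.161 CPM in post-MCS-01 and at 13.5, 736 and 381 CPM in DSCG, a log2 fold change of -11.40 ± 1.59 (SE, edgeR adjusted p = 0.0288), or -10.47 without DSCG replicate 2. Krtap1-4 had 3 counts in all over the post-MCS-01 libraries, and its pooled ratio of DSCG over post-MCS-01 was 4736 (95% Clopper-Pearson interval 1620 to 22970, counting error only). Krtap26-1 had 2 counts there, with a pooled ratio of 3637 (1006 to 30036). Without DSCG replicate 2 the fitted values of Krtap1-4 and Krtap26-1 went from -11.97 and -11.51 to -10.92 and -10.36, and that of Krtap1-4 was -15.07 without post-MCS-01 replicate 1. The genes of this family resemble each other, so single members are uncertain where reads fit more than 1 of them.

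Promoters were searched for 4 short motifs (LEF1, TATA box, NF-kB and C/EBP). The 4 promoters shown are from genes that fell, and each matches LEF1 and the TATA box. They are not typical of the lower genes, of which 14 of 115 promoters matched LEF1. The promoters of Krt33b, Krtap11-1 and Lyg2 also match C/EBP, which is not marked. The 250 bases before the annotated start come from RefSeq on GRCm38.p6. Each is written 5′ to 3′ on the strand of its gene, the minus strand in all 4, and the capitals mark CTTTGAA, a core sequence bound by LEF1, the factor through which Wnt signals reach hair genes, and TATAAA, the TATA box. The regions are chr11:100050552-100050801 for Krt31, chr11:100029869-100030118 for Krt33b, chr16:89571184-89571433 for Krtap11-1 and chr1:37916494-37916743 for Lyg2.
Krt31: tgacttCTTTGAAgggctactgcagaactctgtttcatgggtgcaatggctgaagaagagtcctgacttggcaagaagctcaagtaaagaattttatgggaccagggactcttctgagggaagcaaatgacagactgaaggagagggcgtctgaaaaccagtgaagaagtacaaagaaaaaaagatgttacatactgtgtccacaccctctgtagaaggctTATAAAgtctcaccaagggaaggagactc
Krt33b: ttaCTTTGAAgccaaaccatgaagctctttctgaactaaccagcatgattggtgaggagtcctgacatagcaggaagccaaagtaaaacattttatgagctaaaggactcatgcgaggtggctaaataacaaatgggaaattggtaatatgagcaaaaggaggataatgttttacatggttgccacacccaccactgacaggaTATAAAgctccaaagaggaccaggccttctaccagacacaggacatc
Krtap11-1: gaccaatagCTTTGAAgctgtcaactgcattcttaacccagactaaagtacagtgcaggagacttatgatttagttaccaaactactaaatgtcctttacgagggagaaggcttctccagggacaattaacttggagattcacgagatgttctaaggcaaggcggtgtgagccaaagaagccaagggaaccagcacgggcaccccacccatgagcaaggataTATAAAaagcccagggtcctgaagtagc
Lyg2: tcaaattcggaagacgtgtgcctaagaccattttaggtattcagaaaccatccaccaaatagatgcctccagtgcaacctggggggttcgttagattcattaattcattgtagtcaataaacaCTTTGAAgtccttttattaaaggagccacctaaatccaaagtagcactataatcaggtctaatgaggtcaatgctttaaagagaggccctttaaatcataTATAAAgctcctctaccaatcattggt
In these sequences TATAAA begins 29, 47, 28 and 27 bases before the start. Over the genes lower in post-MCS-01, 115 of 149 had a promoter in the RefSeq table, and 64 of these (55.7%) held TATAAA on the strand of the gene, against 5.38% of the promoters of genes tested and 8.12% of all 27025 promoters of this length. It was held by 38 of 47 promoters of keratin-associated proteins (80.9%) and by 5 of 7 of type I hair keratins. In 47 of the 64 (73.4%), a match began 20 to 40 bases before the start. Among the matching promoters of genes tested this held for 289 of 649 (44.5%). CTTTGAA on either strand was held by 5 of 7 type I hair keratin promoters (71.4%) and 7 of 47 of keratin-associated proteins (14.9%). Its share was 4.64% of all promoters and 3.54% of those of genes tested. It was held by 14 of 115 promoters of all lower genes (12.2%), 1 of 14 of the inner root sheath (7.14%), 0 of 2 of type II hair keratins and 3 of 25 of chemokines (12.0%). The C/EBP motif, TT, any 2 bases, G, any base and AA on either strand, was held by 49.6% of promoters of lower genes and 38.9% of those of higher genes. Its share was 29.3% of promoters of genes tested and 36.9% of all promoters. A match describes the letters in the window and not a binding site. Neighbouring family members also share sequence by descent, so these promoters are not independent of each other.

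The inner root sheath, the casing that moulds the growing shaft, followed the shaft. Of 15 tested members, 14 had a negative log2 fold change and 12 passed the threshold as lower (0.916% of all genes tested). The list median was -7.92. Tchh encodes trichohyalin, the protein that fills inner root sheath cells. It was abundant in DSCG wounds, at 630, 5433 and 16714 CPM, and averaged 31.5 ± 9.53 CPM in post-MCS-01 (SD, n = 3), where replicate 1, at 42.4 CPM, was the highest, with 7413, 3158 and 1952 CPM in blank. Its log2 fold change was -7.92 ± 1.12 (SE, edgeR adjusted p = 0.0288), or -6.56 without DSCG replicate 3. Padi3, the peptidylarginine deiminase that modifies trichohyalin, was at 1.39, 0.384 and 2.23 CPM against 34.4, 704 and 764 CPM, a fall of 8.55 on the log2 scale (SE 1.20). Krt72, a keratin of the sheath cuticle, was at 0.731, 0 and 0.184 CPM against 40.4, 1246 and 940 CPM and fell by 11.25 (SE 1.60). The groups did not overlap for any of these genes. The value of Krt72 was -12.87 without post-MCS-01 replicate 1, -10.62 without post-MCS-01 replicate 2 and -10.65 without DSCG replicate 2. Tgm3, Gata3 and Cux1, which are also active outside the sheath, had log2 fold changes of 0.02, -0.88 and -0.83 and did not pass.

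Regulators and other products of the hair matrix and cortex were less uniform. Of 33 tested, 28 had a negative log2 fold change, 11 passed the threshold as lower (0.916% of all genes tested) and 0 as higher. The median was -2.62. In 18 of the 33 the groups did not overlap and post-MCS-01 was lower (8.28% of all genes tested). S100a3, a calcium-binding protein of the hair cuticle, was at 2.09, 0.864 and 2.69 CPM in post-MCS-01 and at 43.7, 1892 and 825 CPM in DSCG, a log2 fold change of -8.93 ± 1.45 (SE, edgeR adjusted p = 0.0323), or -7.85 without DSCG replicate 2. Crym, which encodes a thyroid hormone-binding protein, was at 1.13, 0.576 and 1.56 CPM against 18.3, 472 and 350 CPM and was 256-fold lower (SE 1.22 on the log2 scale), with a log2 fold change of -7.39 without DSCG replicate 2. Lyg2, a lysozyme-like gene, had 2 counts over the post-MCS-01 libraries and was at 3.04, 30.7 and 27.8 CPM in DSCG, a pooled ratio of 1337 (370 to 11043). Fam26d also had 2 counts there, with a pooled ratio of 1741 (482 to 14379). Bhlha9, a transcription factor gene, had 0 counts in post-MCS-01 and was at least 374-fold lower than in DSCG, taking 3 counts over the 3 libraries as the floor. DSCG was at 0.431, 17.8 and 7.62 CPM there, and without DSCG replicate 2 the fitted log2 fold change of Bhlha9, which is no bound, went from -11.43 to -10.32.

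Among the transcription factors of this list, Hoxc13, which drives hair keratin genes, had a log2 fold change of -3.72 (edgeR adjusted p = 0.0431), Dlx3 of -3.46 (0.0414) and Msx2 of -3.80 (0.0497). Fgf5, a signal that ends hair growth, had -5.24 (0.0376), and Dsg4, a desmoglein of the hair cortex, -6.68 (0.0323). These 5 genes passed and were chosen here after their values were seen. Lef1 itself was at 3.20, 0.936 and 3.95 CPM in post-MCS-01 and at 7.78, 30.2 and 56.4 CPM in DSCG, with a log2 fold change of -3.54 (95% interval -5.29 to -1.80), or -2.78 without DSCG replicate 3. The groups did not overlap but the gene did not pass (adjusted p = 0.0686). Foxn1, Wnt10b and Shh, which act in matrix cells, had -1.10, -1.40 and -3.13 and did not pass. The hair follicle stem cell and dermal papilla lists had 0 of 14 and 0 of 16 members past the threshold in edgeR, and medians of -0.40 and -0.56. In these lists 3 and 4 members had an unadjusted p under 0.05 (11.3% of all genes tested did).

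The lower genes lay in clusters along the genome. Of 145 with a position, 89 fell in 7 runs of at least 3 such genes with gaps of at most 500 kb, on GRCm38. Each run begins and ends at a gene that passed as lower, so the shares within runs are high by construction. Over all genes tested, 0.916% passed as lower. The type I keratin and keratin-associated protein cluster on chromosome 11 (99315516 to 100105626) held 41 of the 51 genes tested between its ends. The keratin-associated protein clusters held 13 of 14 on chromosome 10 (77686569 to 77887021), 17 of 24 on chromosome 16 (88646824 to 89571183) and 4 of 6 on chromosome 7 (142174535 to 142304594). The type II keratin cluster on chromosome 15 (101459061 to 101802346) held 8 of 15. The epidermal differentiation region on chromosome 3 (93144787 to 93471980) held 3 of 6, namely Crnn, Tchh and Tchhl1, and the deiminase cluster on chromosome 4 (140745865 to 140845778) held 3 of 4, namely Padi1, Padi3 and Padi4. Of the 26 predicted genes among the lower genes, 22 lay inside these runs. Runs were not sought among the 23 higher genes, which lay on 13 chromosomes.

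Genes outside the keratin families fell with them. Gprc5d, an orphan receptor known from hard keratinizing cells, was at 0.227, 0 and 0.0689 CPM in post-MCS-01 and at 4.28, 256 and 168 CPM in DSCG, a log2 fold change of -10.48 ± 1.66 (SE, edgeR adjusted p = 0.0310). It was -11.83 without post-MCS-01 replicate 1, -9.86 without post-MCS-01 replicate 2 and -9.75 without DSCG replicate 2. Crnn, which encodes cornulin, was at 1.18, 0.360 and 0.597 CPM against 20.6, 328 and 451 CPM and fell by 8.54 (SE 1.21), or by 7.90 without DSCG replicate 3. Prr9, a proline-rich protein, was at 4.51, 2.57 and 1.51 CPM against 41.6, 1586 and 960 CPM and fell by 8.23 (SE 1.34), or by 7.45 without DSCG replicate 2. Slc4a1, the anion exchanger of red cells, was at 0.277, 0.504 and 0.275 CPM against 1.04, 13.4 and 28.6 CPM and fell by 5.34 (SE 0.95), or by 4.32 without DSCG replicate 3. It stands in the blood list, of whose other 3 tested members 0 passed. Falls of low genes were imprecise: Capn8, Sct, Cldn14, Actbl2, Kcnk16, Tm4sf4 and Slc30a3 each had 1 to 3 counts in post-MCS-01 as a whole, with pooled ratios of DSCG over post-MCS-01 from 133 for Slc30a3 (36.5 to 1106) to 1196 for Capn8 (409 to 5804). These intervals cover counting error only, and the fitted values of all 7 genes moved by over 1.5-fold when 1 library was dropped. Without DSCG replicate 3, Kcnk16 went from -8.28 to -6.65. Without DSCG replicate 2, Capn8, Sct, Cldn14 and Slc30a3 were at -9.21, -7.87, -7.48 and -6.11. Without post-MCS-01 replicate 1, Sct, Cldn14, Actbl2 and Tm4sf4 were at -9.36, -9.15, -10.44 and -10.30, Slc30a3 was at -9.33 without post-MCS-01 replicate 2, and Capn8 at -10.78 without post-MCS-01 replicate 3. In Gprc5d, Crnn, Prr9 and Slc4a1 the groups did not overlap, and DSCG replicate 1 was the lowest DSCG library.

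Of the 23 genes that rose and passed the threshold, called risers here, 9 stand in at least 1 of the gene lists, and no list had more than 2 risers. Gzmb, which encodes granzyme B of cytotoxic lymphocytes (chromosome 14, 56258838 to 56262260, GRCm38, protein-coding), was at 8.34, 5.09 and 8.01 CPM in post-MCS-01 and at 1.55, 0.835 and 1.31 CPM in DSCG, with 2.37, 1.85 and 2.10 CPM in blank. The post-MCS-01 libraries lay above all 9 others. Its log2 fold change was 2.54 ± 0.32 (SE, n = 3 libraries each, edgeR adjusted p = 0.0288). It was the single gene of the 21 tested in the T and NK cell list that passed (0.141% of all genes tested passed as higher). That list had 16 positive members and a median of 0.53, with 5 higher without overlap (7.14% of all genes tested). Ctla4, Foxp3 and Il2ra, which mark regulatory and activated T cells, had 2.20 (adjusted p = 0.0535), 1.85 and 1.60, while the T cell receptor chain Cd3e and the killer cell granule protein Nkg7 had -0.29 and -0.04.

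**Figure D2:**
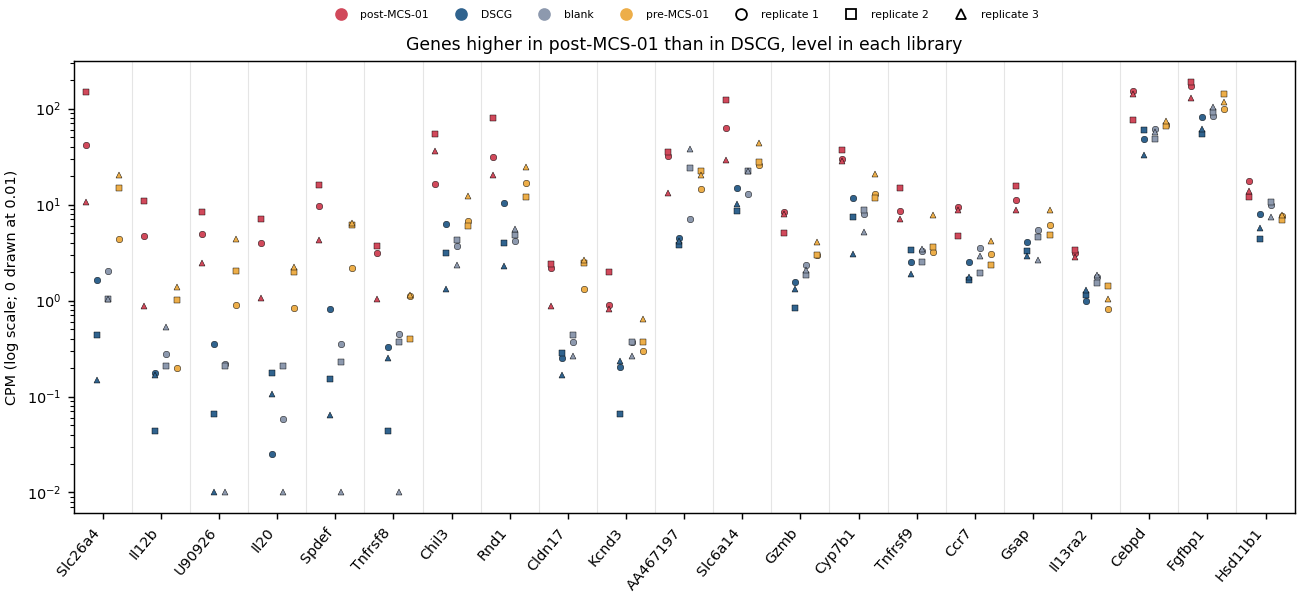
Each point is 1 library, the horizontal axis names the genes higher in post-MCS-01 than in DSCG and the vertical axis gives CPM on a log scale, with 0 drawn at 0.01. Gzmb sits at 5.09 to 8.34 CPM in post-MCS-01 and at 0.835 to 1.55 CPM in DSCG, and Slc26a4 ranges from 10.7 to 148 CPM in post-MCS-01.

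Among cytokine genes, Il20, a cytokine of the interleukin 10 family that acts on keratinocytes, was at 3.98, 7.05 and 1.06 CPM in post-MCS-01 and at 0.0253, 0.176 and 0.106 CPM in DSCG. It rose by 5.23 on the log2 scale (SE 0.85, edgeR adjusted p = 0.0323), or by 4.59 without post-MCS-01 replicate 2 and 5.83 without DSCG replicate 2. The related Il19 and Il22 had 3.70 and 3.89 and did not pass (adjusted p = 0.142 and 0.161). Il12b, the chain shared by interleukins 12 and 23, was at 5.52 ± 5.11 CPM in post-MCS-01 (SD, n = 3, 0.872 CPM in replicate 3) against 0.177, 0.0440 and 0.169 CPM in DSCG, a log2 fold change of 5.38 ± 1.00 (SE, adjusted p = 0.0353), or 4.42 without post-MCS-01 replicate 2. The other chains of these cytokines, Il12a and Il23a, had 1.70 and 2.27 and did not pass. The groups did not overlap for Il20 or Il12b, and post-MCS-01 replicate 3 was the lowest of its group in both.

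Ccr7, the chemokine receptor that leads dendritic cells and T cells to lymph nodes, was at 9.47, 4.65 and 8.72 CPM in post-MCS-01 and at 2.51, 1.63 and 1.78 CPM in DSCG, a log2 fold change of 1.95 ± 0.36 (SE, edgeR adjusted p = 0.0353). Its ligand gene Ccl19 had 1.03 and did not pass. Tnfrsf9, a costimulatory receptor of activated T cells, was at 8.54, 14.8 and 7.07 CPM against 2.53, 3.36 and 1.88 CPM and rose by 1.96 (SE 0.41, adjusted p = 0.0497). Tnfrsf8, a receptor of the same family, was at 3.15, 3.70 and 1.03 CPM against 0.329, 0.0440 and 0.254 CPM and rose by 3.64 (SE 0.75, adjusted p = 0.0470). Il13ra2, the decoy receptor for interleukin 13, was at 3.15, 3.38 and 2.82 CPM against 0.988, 1.14 and 1.29 CPM and rose by 1.45 (SE 0.28, adjusted p = 0.0382). Chil3, a chitinase-like protein of alternatively activated macrophages and neutrophils, was at 16.4, 53.8 and 36.2 CPM against 6.28, 3.12 and 1.31 CPM and rose by 3.31 (SE 0.59, adjusted p = 0.0323), or by 4.00 without DSCG replicate 1. In all 5 genes the groups did not overlap, and Il13ra2 had the narrowest spread.

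Slc26a4 encodes pendrin, an anion exchanger of epithelia, and was at 42.2, 148 and 10.7 CPM in post-MCS-01 and at 1.62, 0.440 and 0.148 CPM in DSCG, with 1.04 to 2.04 CPM in blank. Its log2 fold change was 6.53 ± 1.14 (SE, edgeR adjusted p = 0.0323), or 5.19 without post-MCS-01 replicate 2 and 7.83 without DSCG replicate 1. Its promoter is shown because it was 1 of 2 among 18 promoters of higher genes that held a consensus of the NF-kB factors, GGGA and TCC with any 3 bases between them, on either strand. That share was 11.1%, against 3.82% of all promoters, 4.39% of those of genes tested and 24.0% of 25 chemokine promoters. The region is chr12:31559985-31560234 on the minus strand of GRCm38.p6 in RefSeq, written 5′ to 3′, with capitals for that motif and for TATAAA. A C/EBP match in this region is not marked.
Slc26a4: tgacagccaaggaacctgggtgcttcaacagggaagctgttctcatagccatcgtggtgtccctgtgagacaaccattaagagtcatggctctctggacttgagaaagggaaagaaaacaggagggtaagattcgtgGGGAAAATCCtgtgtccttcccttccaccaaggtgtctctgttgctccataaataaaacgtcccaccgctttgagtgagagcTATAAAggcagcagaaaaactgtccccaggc
Slc6a14, an amino acid transporter, was at 62.9, 122 and 28.8 CPM against 14.8, 8.55 and 10.2 CPM and rose by 2.67 on the log2 scale (SE 0.47, adjusted p = 0.0323), or by 2.06 without post-MCS-01 replicate 2. Spdef, a transcription factor of secretory epithelium, was at 9.67, 16.1 and 4.31 CPM against 0.811, 0.154 and 0.0635 CPM and rose by 4.89 (SE 0.87), a value that was higher without DSCG replicate 1, at 6.50. Cldn17, a claudin of tight junctions, was at 2.17, 2.38 and 0.872 CPM against 0.253, 0.286 and 0.169 CPM and rose by 2.92 (SE 0.47). It was the single riser among 18 tight junction genes (0.141% of all genes tested passed as higher). The median of that list was -0.21, with 14 members negative. In Slc26a4, Slc6a14, Spdef and Cldn17, post-MCS-01 replicate 3 was the lowest post-MCS-01 library and still lay above every DSCG library. It lay below the highest pre-MCS-01 library in each, at 20.5 CPM for Slc26a4, 43.4 for Slc6a14, 6.42 for Spdef and 2.65 for Cldn17.

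Rises of 2.40-fold to 4.32-fold were seen in 4 further genes. Fgfbp1, which releases fibroblast growth factors from the matrix, was at 173, 191 and 128 CPM in post-MCS-01 and at 82.0, 53.8 and 60.8 CPM in DSCG, with 84.3 to 103 CPM in blank. It rose 2.50-fold, a log2 fold change of 1.32 ± 0.23 (SE, edgeR adjusted p = 0.0323). Cebpd, a transcription factor of acute inflammation, was at 154, 76.9 and 141 CPM against 47.9, 59.5 and 32.7 CPM and rose 2.66-fold (SE 0.28 on the log2 scale, adjusted p = 0.0396). Cyp7b1, an oxysterol hydroxylase, was at 29.8, 37.4 and 28.6 CPM against 11.7, 7.43 and 3.05 CPM and rose 4.32-fold (adjusted p = 0.0417). Hsd11b1, the enzyme that regenerates active glucocorticoid, was at 17.6, 12.0 and 14.0 CPM against 8.06, 4.37 and 5.76 CPM and rose 2.40-fold (adjusted p = 0.0497). For Fgfbp1, Cebpd, Cyp7b1 and Hsd11b1 the post-MCS-01 libraries lay above the DSCG and the blank libraries alike. They also lay above the pre-MCS-01 libraries for Cebpd, Cyp7b1 and Hsd11b1, but overlapped them for Fgfbp1 (98.6, 142 and 116 CPM).

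Of the remaining risers, Rnd1, a small GTPase that loosens cell adhesion, rose by 2.96 on the log2 scale (SE 0.60), from 5.61 ± 4.33 CPM in DSCG (SD, n = 3) to 31.3, 79.0 and 20.5 CPM. Its value was 2.22 without post-MCS-01 replicate 2 and 3.79 without DSCG replicate 1. Kcnd3, a potassium channel, rose by 2.87 (SE 0.54) and Gsap by 1.79 (SE 0.34). U90926 rose by 5.26 (SE 1.00), with 7.21 without DSCG replicate 1 and 4.63 without DSCG replicate 3. AA467197 rose by 2.68 (SE 0.53) while its blank libraries, at 7.08, 24.0 and 37.5 CPM, overlapped post-MCS-01 at 32.0, 35.2 and 13.1 CPM and DSCG was at 3.80 to 4.48 CPM. Its log2 fold change was 0.26 between post-MCS-01 and blank and -2.42 between DSCG and blank, neither of which passed (adjusted p = 0.969 and 0.999).

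Beyond the named risers, inflammatory lists lay above the median of all genes with few members past the threshold. The list of other inflammatory mediators had a median log2 fold change of 2.05, with 19 of 20 members positive. In it 2 passed as higher, Tnfrsf8 and Tnfrsf9 (0.141% of all genes tested passed as higher). Of 33 chemokine genes, 28 were positive with a median of 1.03, and edgeR called 0. An unadjusted p under 0.05 was reached by 12 (11.3% of all genes tested), and DESeq2 called 6 (620 of all 16267 genes tested). Cxcl1, which attracts neutrophils, was at 19.1, 20.1 and 20.2 CPM in post-MCS-01 and at 1.70, 3.89 and 0.212 CPM in DSCG, and did not pass (log2 fold change 3.35, 95% interval 1.41 to 5.30, adjusted p = 0.131, and 4.39 without DSCG replicate 2). Il33, an alarm signal of epithelium that activates mast cells, was at 109, 172 and 153 CPM against 65.9, 42.0 and 11.3 CPM and did not pass (1.86, interval 0.79 to 2.94, adjusted p = 0.129). The groups did not overlap in either gene. Post-MCS-01 was higher without overlap in 9 of 33 chemokine genes and 10 of 20 mediators (7.14% of all genes tested). Cxcl2 overlapped and was highest in post-MCS-01 replicate 2, at 19.0, 694 and 21.6 CPM against 74.3, 4.72 and 0.423 CPM. Nos2 did so too, at 2.37, 76.3 and 2.13 CPM against 2.31, 1.01 and 1.02 CPM. The interferon response list had a median of 0.03, with 11 of 21 members positive and 10 negative.

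Markers of leukocytes were recorded beside these lists. The 13 tested neutrophil genes had a median of 1.67 and summed to 5929, 10899 and 4841 CPM in post-MCS-01, to 3912, 982 and 90.9 CPM in DSCG to 712 to 1102 CPM in blank and to 6764, 4623 and 4308 CPM in pre-MCS-01. S100a8 and S100a9, which keratinocytes of injured skin also make, held 89.5% to 90.2% of the sum in post-MCS-01 and 21.2% to 91.4% in DSCG. In edgeR 0 of the 13 passed, with 5 at an unadjusted p under 0.05 (11.3% of all genes tested were) and 2 called by DESeq2. Elane and Camp were below the filter on low counts. Mpo, the myeloperoxidase of neutrophil granules, had -1.29 and did not pass. Lcn2, an iron-binding defence protein of neutrophils and epithelium, was at 322, 501 and 248 CPM against 118, 52.7 and 16.0 CPM and did not pass (2.52, interval 1.24 to 3.80, adjusted p = 0.0771). It passed without DSCG replicate 1 (3.38, adjusted p = 0.00726) but not when any other of the 6 libraries was dropped, with 2.05 without DSCG replicate 3. The 16 macrophage genes were all positive with a median of 0.35, and summed to 2277 to 3598 CPM in post-MCS-01 and 1567 to 3077 CPM in DSCG. Ptprc, the common leukocyte antigen, was at 45.3, 62.5 and 66.4 CPM against 50.8, 17.1 and 19.0 CPM, and DSCG replicate 1 lay within the post-MCS-01 range. The log2 fold change of 1.00 did not pass, and was 1.69 without DSCG replicate 1 (adjusted p = 0.0406). Ptprc did not pass when any other of the 6 libraries was dropped, with 0.73 without DSCG replicate 2 and 0.76 without DSCG replicate 3. The part of leukocyte number in the rises above was not tested.

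**Figure D3:**
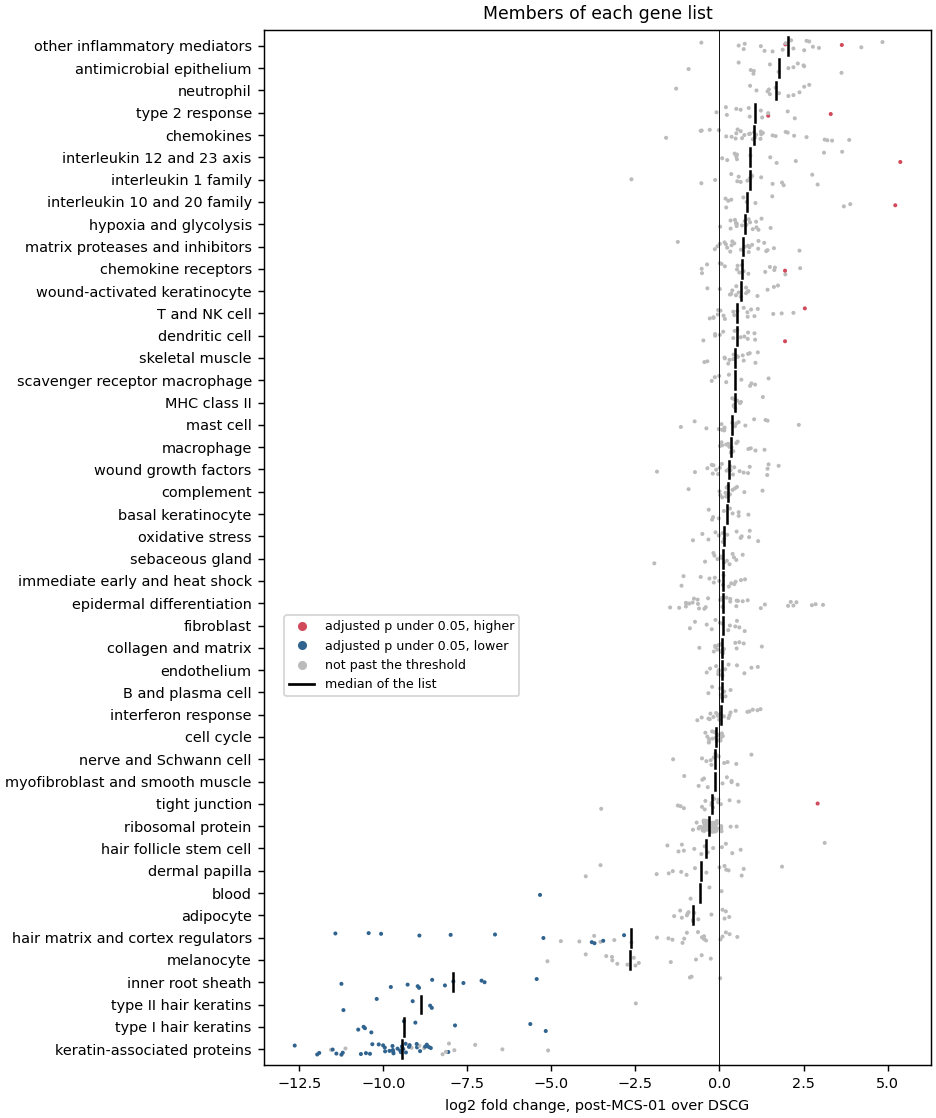
Each point is 1 gene, the horizontal axis gives the log2 fold change of post-MCS-01 over DSCG and each row of the vertical axis is a gene list with its median as a line. The 4 lists of hair keratins, keratin-associated proteins and inner root sheath have medians from -9.45 to -7.92, while the inflammatory and neutrophil lists lie to the right of 0 with few coloured points.

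Both agents are mast cell stabilizers, and no mast cell gene passed between them. In edgeR 0 of the 17 members of the mast cell list passed, with 2 at an unadjusted p under 0.05 (11.3% of all genes tested were) and 0 called by DESeq2, and the list median was 0.38. The summed level was 262, 387 and 359 CPM in post-MCS-01, 316, 302 and 163 CPM in DSCG and 222 to 297 CPM in blank. Cpa3, carboxypeptidase A3 of mast cell granules, was at 23.9, 11.2 and 26.3 CPM in post-MCS-01 and at 22.6, 17.4 and 15.7 CPM in DSCG, a log2 fold change of 0.14 with a 95% interval of -0.54 to 0.82. Mcpt4, a chymase of connective tissue mast cells, was at 68.0, 28.2 and 95.6 CPM against 67.5, 88.8 and 38.3 CPM (-0.02, interval -0.88 to 0.84). Cma1, another chymase, had 0.07 (interval -0.71 to 0.85). The groups overlapped for all 3 proteases, and differences within these intervals were not detectable with 3 libraries a group.

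Tpsb2, a tryptase, had a log2 fold change of -0.39 (95% interval -1.12 to 0.34), and Mrgprb2, the receptor for cationic secretagogues, 0.06 (-0.67 to 0.79). The IgE receptor chains Fcer1a and Ms4a2 had 0.46 (-0.50 to 1.41) and 0.77 (-0.30 to 1.83). Kit, the receptor for stem cell factor on mast cells and melanocytes, was at 9.37, 6.21 and 10.2 CPM in post-MCS-01 and at 12.3, 17.1 and 27.9 CPM in DSCG, without overlap. Its log2 fold change of -1.15 (-2.05 to -0.26) did not pass (edgeR adjusted p = 0.279), and the 14 melanocyte genes had a median of -2.65. Hdc, the histamine-forming enzyme, which neutrophils also make, was at 23.5, 243 and 41.7 CPM against 45.9, 10.7 and 3.68 CPM (2.36, interval -0.21 to 4.92), with 0.71 without post-MCS-01 replicate 2 and 3.84 without DSCG replicate 1. Mcpt8, a protease of basophils, was at 0.705, 0.504 and 0.436 CPM against 0.101, 0.418 and 0.106 CPM and had 1.37 (0.19 to 2.56, adjusted p = 0.345), or 2.37 without DSCG replicate 2. The other members were Tpsab1, Gata2, Hpgds, Il1rl1, Mcpt1, Mcpt2 and Tph1, with log2 fold changes of 0.15, 0.50, 0.38, 0.57, -0.74, 1.43 and 1.03, and none of these passed. RNA levels do not measure the release of granules.

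**Figure D4:**
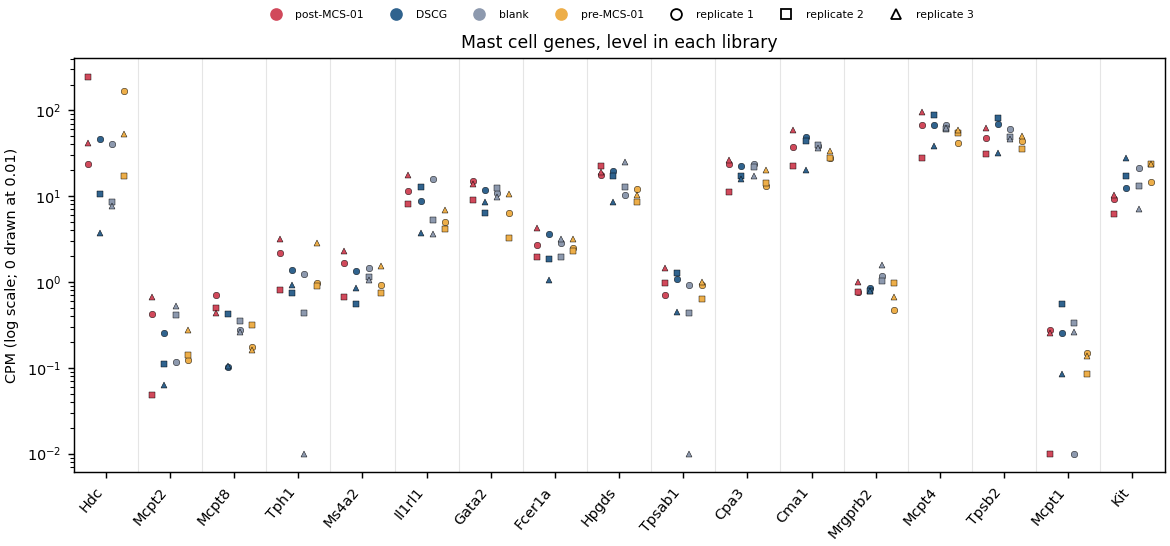
Each point is 1 library, the horizontal axis names the members of the mast cell list and the vertical axis gives CPM on a log scale, with 0 drawn at 0.01. The post-MCS-01 and DSCG points of the granule protease Cpa3 lie between 11.2 and 26.3 CPM and overlap, and those of Hdc range from 3.68 to 243 CPM.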

How the data were processed

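The authors deposited raw counts, unnormalized, by gene symbol in a file for each library, with 24062 genes besides 5 summary lines that were left out. FastQC, TopHat2, Bowtie2, HTSeq and limma, with build mm10, are named in the submitters' processing notes, and versions, strand setting and annotation are not given in the sources used here. Records set aside as not uniquely aligned were 17.4% to 23.4% of gene, no-feature, ambiguous and non-unique counts together in the 6 libraries compared. Libraries were grouped by the treatment label, and replicates carry numbers in record order.

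Counts were analysed in R 4.3.3. filterByExpr left 16267 genes, TMM factors were 0.905 to 1.07, and edgeR 4.0.16 (glmQLFit, glmQLFTest, two-sided) was fitted to all 12 libraries, each group having its own mean. Benjamini-Hochberg adjustment ran over all genes tested. Every adjusted p in the text is from edgeR unless another tool is named. With 3 libraries against 3, the smallest exact two-sided permutation p for a single gene is 0.1. The labels give each library its own mouse and nothing more on independence. Intervals of fold changes are 95% intervals from the same model, and count ratios carry exact 95% Clopper-Pearson intervals.

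The naming rule took all risers with a mean of at least 1 CPM, the 20 largest falls outside the Krt symbols, the 4 lowest p-values in each hair keratin and keratin-associated list, up to 4 genes of each other list, and the mast cell list. Predicted genes were not named. Not every gene the rule takes is described, and 1 of them is not reported here. The genes and lists were chosen with earlier results of these data known. Coordinates and exon lengths come from GENCODE M21 (GRCm38, which mm10 names), with a length for 95.4% of genes tested, and promoters from RefSeq. The scripts were tested on simulated data. Alternatives were other scalings, no filter, edgeR's newer fit, DESeq2 1.42.0, limma 3.58.1 (voom), fewer libraries and an exon-length covariate.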

Additional observations from a re-analysis of the deposited data

How the results depend on the processing

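RLE scaling, total-count scaling, no filter and edgeR's newer quasi-likelihood fit gave 164 to 196 genes past the threshold, within 1.5 times of the 172. DESeq2 gave 620 (179 higher, 441 lower). limma-voom gave 2 (1 higher, 1 lower) and, with library quality weights, 0 (0 higher, 0 lower). The fit of the 6 libraries compared alone, the fit without the 3 libraries short of long transcripts (DSCG replicate 2, blank replicate 3 and pre-MCS-01 replicate 2) and the fit with the exon-length trend as a covariate each gave 0 (0 higher, 0 lower). Unadjusted p-values were under 0.05 for 1736, 1453, 1528 and 1985 genes in the 4 fits that gave 0. Leaving out 1 library at a time gave 0 to 606 genes (0 to 152 higher, 0 to 454 lower), and among the libraries of other groups the result was 90 genes without pre-MCS-01 replicate 3, 35 without blank replicate 2 and 0 without blank replicate 3. All 172 genes kept their direction in every fit that tested them, 166 of them in the fit of 6 libraries, and the cause of the lost calls was not tested. By list, limma-voom left 1 of the 12 called inner root sheath genes and 0 of the other hair genes. No paired analysis was possible because the labels give every library its own mouse number. Differences among genes at a few counts, such as those near 0 in post-MCS-01, are limited by depth.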

Other observations

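Pigment cell genes lay below DSCG levels in post-MCS-01 wounds without passing the test. All 14 genes of the melanocyte list had a negative log2 fold change, with a median of -2.65, and in 10 the groups did not overlap (8.28% of all genes tested were lower without overlap). In edgeR 0 passed, with 11 at an unadjusted p under 0.05 (11.3% of all genes tested) and 10 called by DESeq2. Their summed level was 99.7, 52.7 and 118 CPM in post-MCS-01, 160, 201 and 582 CPM in DSCG and 146 to 329 CPM in blank. Oca2, a melanosome transporter, was at 0.0756, 0.0720 and 0.230 CPM against 2.05, 0.923 and 10.6 CPM (log2 fold change -5.12, 95% interval -7.75 to -2.49, adjusted p = 0.0822), or -3.52 with DSCG replicate 3 left out and -5.86 with post-MCS-01 replicate 3 left out. Sox10, which marks the whole lineage, had -0.26 and did not pass. DSCG replicate 3 was the highest DSCG library in the melanocyte sum, whereas DSCG replicate 2 was the highest in the hair keratin sums.

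Genes of glycolysis and the hypoxia response were all positive in post-MCS-01 over DSCG, 19 of 19 with a median of 0.75. In edgeR 0 passed, with 9 at an unadjusted p under 0.05 (11.3% of all genes tested) and 0 called by DESeq2. Pgk1, a glycolytic kinase, was at 481, 635 and 421 CPM against 380, 330 and 259 CPM (log2 fold change 0.67, 95% interval 0.19 to 1.14, adjusted p = 0.228). Adipocyte genes had a median of -0.79 with 11 of 15 negative and 0 past the threshold in edgeR, with 5 at an unadjusted p under 0.05 (11.3% of all genes tested). Within the epidermis, the list of differentiation genes had a median of 0.09, but its members differed. The small proline-rich genes Sprr2d, Sprr2e, Sprr2f and Sprr2k had log2 fold changes of 2.20, 2.75, 3.08 and 2.86, and Ivl, which encodes involucrin, had -1.20 (66.8, 77.2 and 33.9 CPM against 139, 128 and 141 CPM). None of these 5 genes passed, and the Sprr2 genes are close copies whose split of reads is uncertain. The collagen and matrix, endothelium and cell cycle lists had medians of 0.08, 0.06 and -0.11, with 0 members past the threshold in edgeR and 0 at an unadjusted p under 0.05.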
